A study of Macaca mulatta with 24 samples.

Results

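The jejunum of rhesus macaques was compared between day 12 after total-body irradiation (TBI) and no irradiation. Day 12 was represented by 4 arrays, 2 after 6.7-Gy TBI and 2 after 7.4-Gy TBI, and the unirradiated state by 4 control arrays. These were 8 of the 24 arrays of the jejunum series, chosen by the titles, and every non-control probe was eligible. The animals were young adult males, TBI was a single uniform exposure to cobalt-60 gamma rays, and each array held unpooled RNA from the full gut wall of 1 animal. The controls were sham-irradiated and carry day 4 in their titles, so the day of sampling differed between the groups as well as irradiation. Because the tissue was sampled whole, fewer cells of a type and less RNA per cell cannot be told apart in any value below.

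The jejunal epithelium is renewed from stem cells at the base of the crypts, whose daughters divide, migrate onto the villi and mature into absorptive enterocytes, goblet cells and enteroendocrine cells. Radiation kills dividing crypt cells and lymphocytes and activates p53, the transcription factor that induces cell cycle arrest and death genes. Surviving stem cells then regrow the crypts, while the marrow and the blood recover later.

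A level is the log2 signal of a probe minus the array's 75th percentile, so that 0 is the 75th percentile and each unit is a doubling. A probe was called when limma's Benjamini-Hochberg adjusted p was under 0.05 and the change was at least 2-fold. The 75th percentile signal lay between 778 and 975 on the 8 arrays, and no probe was saturated. On 5 arrays 80.8% to 87.7% of the 43603 probes were well above background. The other 3, control 4, 6.7 Gy replicate 2 and 7.4 Gy replicate 1, had a higher background, with 51.3%, 60.0% and 41.2%. All controls lay at slide position 1 and all day 12 arrays at position 4, so position and irradiation cannot be told apart. In an alternative chosen after the data were seen, every level was raised to at least a common floor of -2.13, the highest of the lowest signals well above background on the 8 arrays. Both 7.4-Gy arrays were scanned on another day than the other 6, so dose and scan day cannot be told apart on these arrays.

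Between day 12 and control, 9 of 35958 probes tested were called (0.025%), 6 higher on day 12 (0.0167%) and 3 lower (0.00834%). Before adjustment, 563 probes (1.57%) had a limma p under 0.05 together with a change of at least 2-fold. With all 43603 probes in the test, including those near background, limma called 0, while 525 had an unadjusted p under 0.05 and a change of at least 2-fold. The smallest adjusted p was then 0.0974. Of the 9 called probes, EDA2R alone had a symbol that its own description bears out. No called probe passed once any 1 array other than control 1 was left out, when limma called 0 probes in each of 7 fits. Without control 1, 16 were called, 5 of them among the 9.

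EDA2R, a receptor of the TNF receptor superfamily that p53 induces, was up-regulated on day 12. Its levels were -3.02, -2.84, -2.51 and -3.04 in the controls, -1.18 and -1.36 after 6.7 Gy, and -1.03 and -0.67 after 7.4 Gy. Every day 12 array stood above every control, and the probe was well above background on all 8. The difference was 1.79 on the log2 scale (SE 0.20), or 3.46-fold, with a limma adjusted p of 0.049993, at the edge of the threshold. It lay between 1.66 and 1.91 with each array left out in turn, and the adjusted p then lay between 0.106 and 0.254. Within slide 3 and within slide 4, each of which held 1 control and 1 array after 6.7 Gy, the differences were 1.33 and 1.69. Within the first scan day, which held all controls and both 6.7-Gy arrays, the difference was 1.58 (limma adjusted p = 0.284), and the second scan day held no control. EDA2R was called in 8 of 28 alternatives and positive in all of them. Its controls lay below the common floor, with which the difference was 1.07 (adjusted p = 0.229). It was at 0.90 ± 0.30 (SD, 8 arrays) on day 4 and at -0.38 ± 0.63 (SD, 8 arrays) on day 7. The fall from day 4 to day 12 of both doses together passed the test (limma adjusted p = 0.000314), and the difference between day 7 and day 12 did not (adjusted p = 0.342).

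The other called probe with a symbol carries the name FAU, but its description names a macaque cDNA similar to human PSG5, and a second FAU probe stood at 5.76 in controls and 5.58 on day 12. Its gene is therefore uncertain. The called probe read -3.24, -2.57, -3.04 and -2.48 in the controls, 0.19 and -0.34 after 6.7 Gy and -0.56 and -0.12 after 7.4 Gy. All day 12 arrays exceeded all controls, by 2.63 on average (SE 0.24, 6.18-fold, limma adjusted p = 0.0283).

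The remaining 7 called probes have no gene symbol in the tables used, and 6 of them are given here, chosen after their values were seen. A_01_P1818026 rose by 1.59 (SE 0.15), from controls of -2.28 to -1.88 to day 12 arrays of -0.53 to -0.44. A_01_P009806 rose by 2.09 (SE 0.22), with controls from -2.55 to -1.58 and day 12 arrays from -0.00 to 0.18. The groups did not overlap for these probes, as for every called probe, and a small p favors this. A_01_P1832511 decreased by 1.79 (SE 0.15), from 0.71 to 1.17 in controls to -0.99 to -0.75 on day 12, and A_01_P1771056 decreased by 1.74 (SE 0.17). With the common floor the difference of A_01_P1771056 was -0.73. A_01_P1832946 and A_01_P1832947 were called with differences of 3.14 and 2.76, yet both lay at or under the common floor on all 8 arrays. They were well above background on 2 and on 3 of the 4 controls, and each on 3 of the 4 day 12 arrays.

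**Figure D1:**
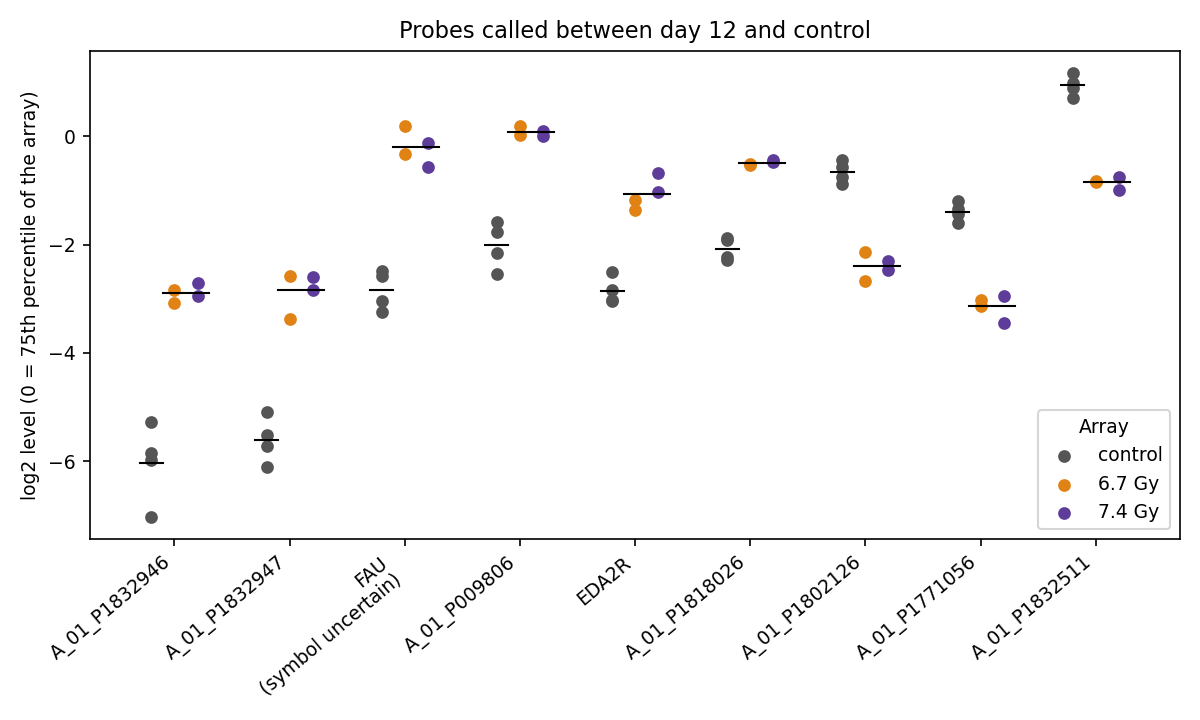
Log2 level of the 9 called probes on each of the 8 arrays, relative to the array's 75th percentile. Points are arrays, colored by group, and the black lines are the means of the 4 control and of the 4 day 12 arrays. In all 9 probes the control arrays and the day 12 arrays of both doses do not overlap.

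The doses lay close together for the called probes, but a difference between doses widens the spread of the pooled day 12 arrays, so probes whose doses differed were less likely to be called. Their dose values are therefore a description and no test of whether the doses agree. The mean after 7.4 Gy minus the mean after 6.7 Gy lay between 0.00622 and 0.415 in size over the 9 probes. For EDA2R, the difference from control was 1.58 after 6.7 Gy and 2.00 after 7.4 Gy, and the 95% interval of the dose difference ran from -0.19 to 1.02. For A_01_P1818026 the corresponding values were 1.56 and 1.62, with an interval from -0.46 to 0.58. Both dose comparisons also use the same 4 controls. Over all probes, 1 of 35958 was called between the doses (0.00278%) and 2004 had an unadjusted p under 0.05 (5.57%).

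The doses differed for UGT3A1, a UDP-glycosyltransferase, the single probe called between them. It read -3.61, -3.69, -3.63 and -4.16 in the controls, 1.78 and 1.13 after 6.7 Gy, and -4.26 and -3.41 after 7.4 Gy. Of the 7.4-Gy arrays 1 lay just below and 1 just above the range of the controls, and the 6.7-Gy arrays lay far above both. The dose difference was -5.29 (SE 0.37, limma adjusted p = 0.0323), with a 95% interval from -6.15 to -4.43. The probe was well above background on 3 controls and on 3 of the 4 day 12 arrays. On day 7, UGT3A1 ranged from -4.63 to 0.80 within the 6.7-Gy arrays and from -4.80 to -3.55 within the 7.4-Gy arrays. When all 24 arrays entered the model with scan day as a block, the difference was -5.02 and the adjusted p was 1.00, against 0.741 without the block. Pooled over both doses, UGT3A1 stood 2.58 above control (SE 1.31, adjusted p = 0.767) and was not called. The pooled difference was 1.59 without 6.7 Gy replicate 1. In the same 3-group model UGT3A1 rose after 6.7 Gy by 5.23 (adjusted p = 0.00611).

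FABP6, the bile acid binding protein of ileal enterocytes, was with UGT3A1 one of the 2 probes called between 6.7 Gy and control (0.00556%). Its levels were -2.19, -1.25, -2.70 and -2.40 in the controls, 5.29 and 5.00 after 6.7 Gy, and 1.22 and 0.95 after 7.4 Gy. All 4 day 12 arrays lay above all controls, in an order of control, 7.4 Gy and 6.7 Gy without overlap. FABP6 rose after 6.7 Gy by 7.28 (limma adjusted p = 0.00423), and the difference after 7.4 Gy was 3.22. Pooled over the doses it was 5.25 (SE 1.03, adjusted p = 0.348), and it was not called. The dose difference, 7.4 Gy minus 6.7 Gy, was -4.06 with a 95% interval from -5.10 to -3.03 (limma adjusted p = 0.282). With all 24 arrays in the model the SE of the dose difference was 1.83 and its adjusted p 0.937, against an SE of 0.45 from the 8 arrays. FABP6 ranged widely within 1 dose on day 4, from -0.44 to 4.97 after 6.7 Gy and from -0.34 to 5.88 after 7.4 Gy.

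Other genes of bile acid handling, most of them typical of the ileum, stood on the same side with smaller differences. The 5 tested list members besides FABP6 were all above control on day 12, and the middle of their differences was 0.66, that of CUBN, the cobalamin receptor cubilin. With FABP6 the median of the list was 0.83, against 0.02 over the 14116 genes tested. It was 0.38 without the 3 arrays of high background and 0.47 with the common floor. SLC51B, a subunit of the basolateral bile acid exporter, stood at 2.60 to 3.00 in the controls and at 3.41 to 4.15 on day 12, a difference of 1.01 (SE 0.20, limma adjusted p = 0.352). The 95% interval of its dose difference ran from -0.50 to 0.88. SLC10A2, the apical bile acid importer, differed by 1.73 and FGF19, the bile acid induced hormone, by 0.22, both with unadjusted p over 0.1. Whether the sampled stretch of bowel had a part in these values was not tested.

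The gene lists below were described by unadjusted p, since beyond EDA2R no listed gene was called. Over all 14116 genes, 3.52% were higher on day 12 and 4.17% lower at an unadjusted p under 0.05, and 2.63% and 2.99% did not overlap between the groups in those directions.

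**Figure D2:**
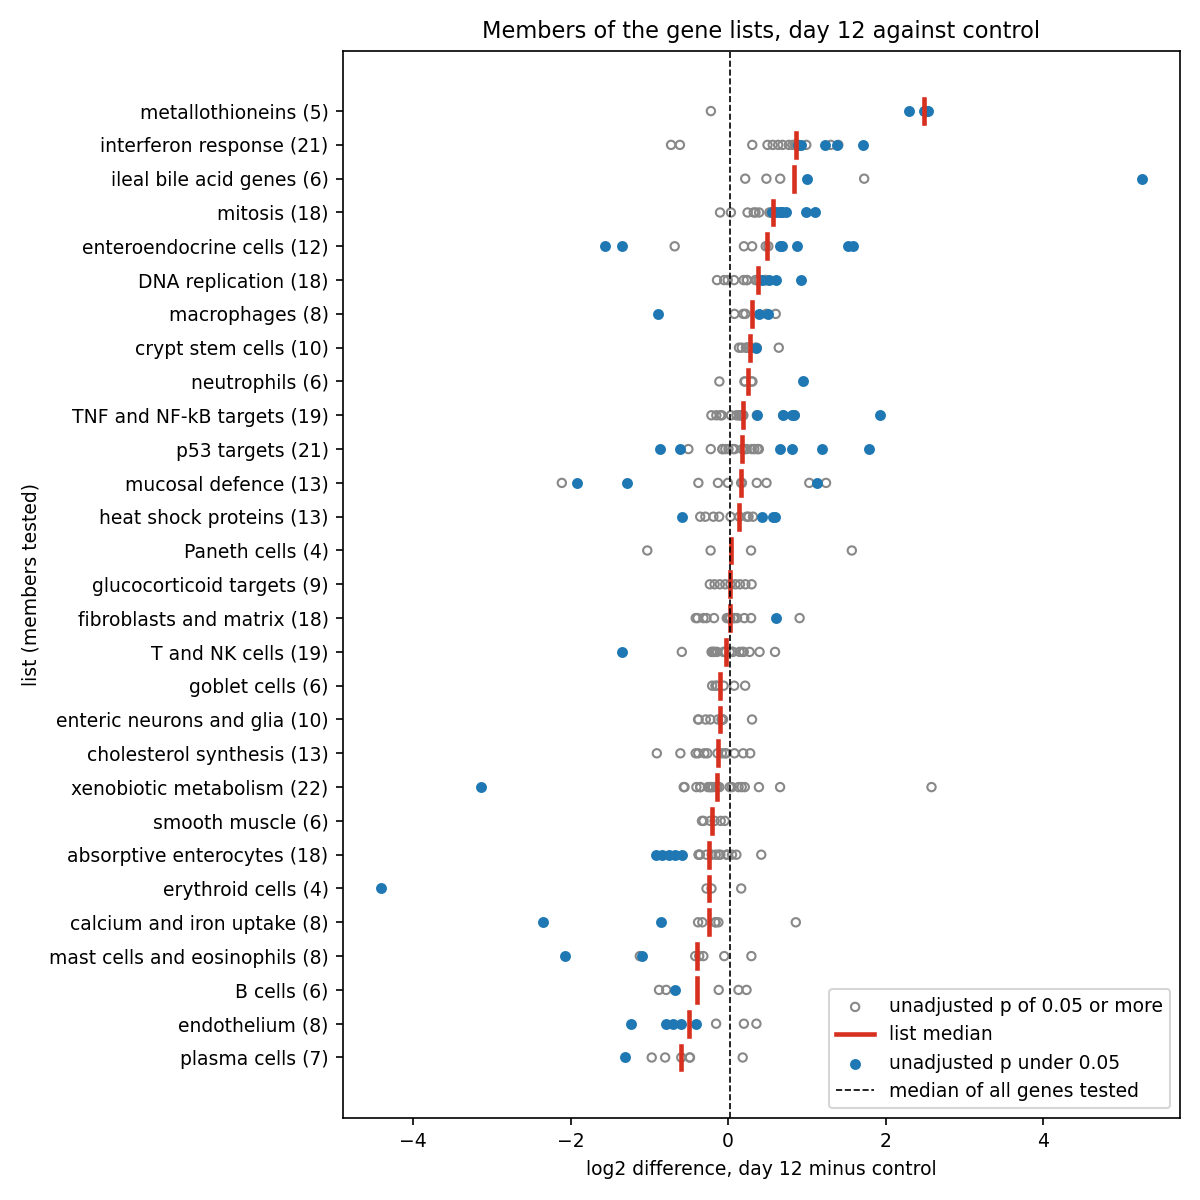
Log2 difference, day 12 minus control, of each tested member of 29 gene lists, with 1 probe a gene. Filled points had an unadjusted limma p under 0.05, red bars mark list medians and the dashed line the median of all genes tested (0.02). The metallothioneins stand farthest to the right, with a median of 2.48, and the plasma cell list farthest to the left, with a median of -0.60.

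Metallothioneins, small cysteine-rich proteins that bind zinc and copper, had the highest median of the 29 lists, at 2.48. Of 5 tested members, 4 were higher at an unadjusted p under 0.05 and none of these 4 overlapped between the groups. MT1X read 2.82, 2.69, 3.67 and 2.78 in the controls, 4.86 and 4.83 after 6.7 Gy and 6.10 and 6.10 after 7.4 Gy. The arrays fell into 3 steps, with the controls lowest and the 7.4-Gy arrays highest. The difference of MT1X was 2.48 (SE 0.38, limma adjusted p = 0.211), that of MT2A 2.54 (SE 0.43, adjusted p = 0.281) and that of MT1E 2.29 (SE 0.41, adjusted p = 0.298). With slide as a fixed block, only the 6.7-Gy arrays and the controls on their slides enter the difference. These differences were then 1.62, 1.60 and 1.27. MT3, the form typical of brain, stood at -0.44 in controls and -0.66 on day 12. The MT4 probe read like the MT1 and MT2 probes, and since these genes are close copies their probes may share transcripts.

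The metallothioneins stood higher after 7.4 Gy than after 6.7 Gy. In 4 of 5 the unadjusted p of the dose difference was under 0.05, against 4.97% of all genes, with none called. With all 24 arrays in the model the p of these 4 lay between 0.0642 and 0.107, and with scan day as a block besides between 0.158 and 0.225, so none was then under 0.05. The list median was 1.75 above control after 6.7 Gy and 3.11 after 7.4 Gy. For MT1X the dose difference was 1.26, with a 95% interval from 0.47 to 2.05. A second MT2A probe was the single probe called between 7.4 Gy and control, where it rose by 3.49 (limma adjusted p = 0.0119). The medians on days 4 and 7, both doses together, were 3.08 and 3.13 above control, so day 12 after 7.4 Gy stood near the earlier days and day 12 after 6.7 Gy below them. The 4 members stood at an unadjusted p under 0.05 also without the 3 arrays of high background, with a list median of 2.36.

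Other targets of p53 stood nearer to control than EDA2R. Among 21 tested, EDA2R included, 1 was called, 4 were higher and 2 lower at an unadjusted p under 0.05, and the median was 0.18, against 0.61 on day 4. The median was 0.06 without 6.7 Gy replicate 1 and 0.12 without control 1 or without the 3 arrays of high background. GDF15, a stress cytokine, stood at -0.49 to 0.59 in the controls, at 1.45 and 2.44 after 6.7 Gy and at 0.53 and 1.24 after 7.4 Gy. The 6.7-Gy arrays were above all controls and 1 of the 7.4-Gy arrays lay within their range. The pooled difference was 1.19 (SE 0.41, limma adjusted p = 0.62), while from day 4 to day 12 GDF15 fell by 2.74 (adjusted p = 6.53e-05). DDB2, a DNA damage recognition factor, stood 0.66 above control (SE 0.18) and fell by 2.07 from day 4 (adjusted p = 4.36e-06). CDKN1A, the p53-induced cell cycle inhibitor, differed from control by 0.37. MDM2, the ubiquitin ligase that degrades p53, differed by 0.08 on the brightest probe and by 0.63 on a dimmer one. TP53I3 stood 0.87 below control in size, at -0.41 against 0.45.

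**Figure D3:**
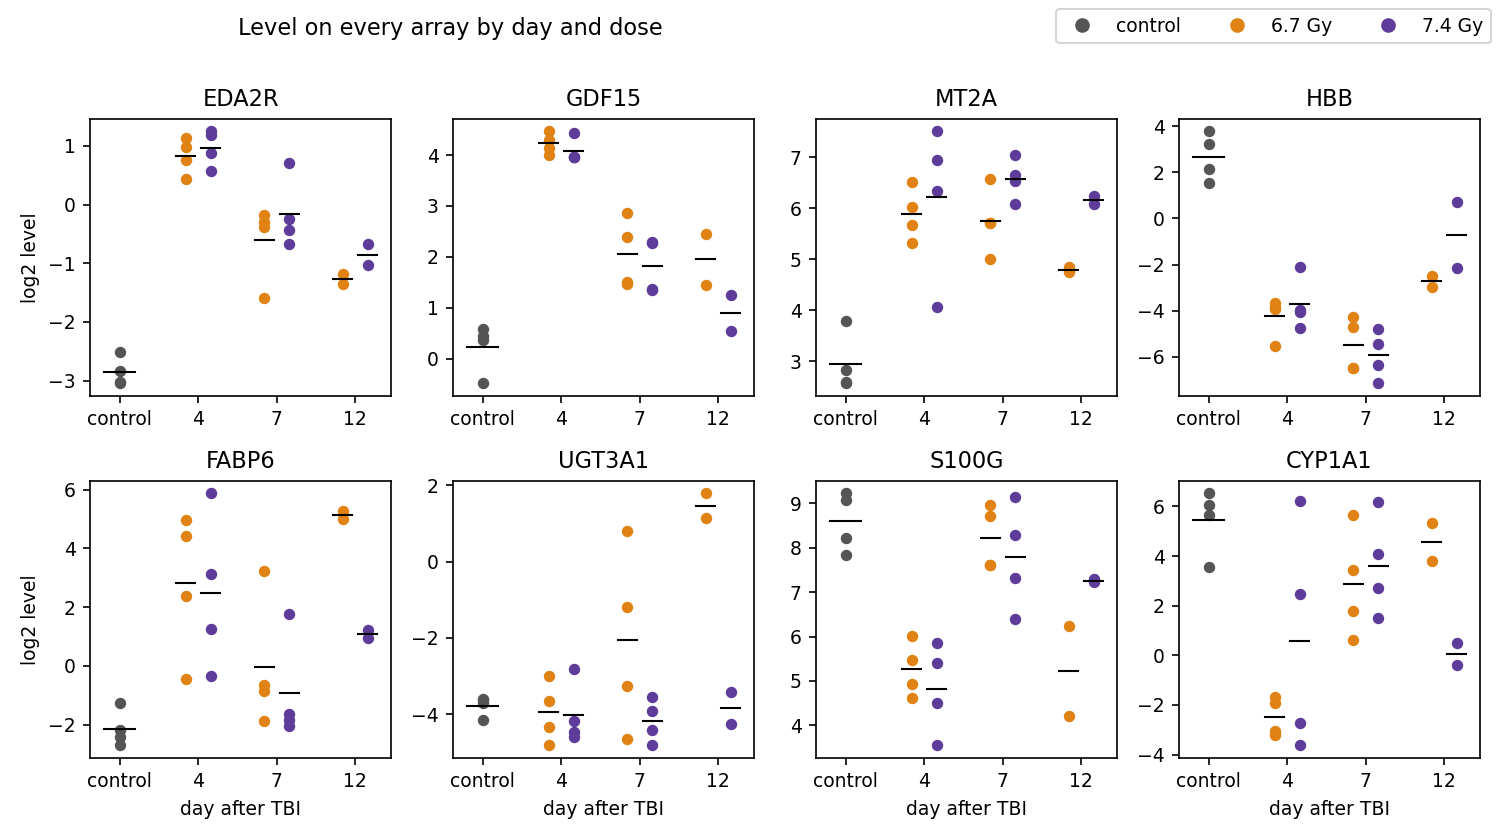
Log2 level of 8 genes on all 24 arrays, by day after TBI, with points colored by dose and black lines at group means. EDA2R and GDF15 are highest on day 4, MT2A remains high through day 12 after 7.4 Gy, HBB is lower than control on every day, and on day 12 FABP6, UGT3A1, S100G and CYP1A1 separate by dose.

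Genes of dividing cells had medians above control, but 1 of the 4 day 12 arrays was not raised. In 6.7 Gy replicate 1 the summed level was 4.17 for mitosis, within the controls at 4.01 to 4.17, and 5.05 for DNA replication, below the controls at 5.15 to 5.48. The other day 12 arrays lay at 4.66 to 5.04 and at 5.58 to 6.01, above all controls. Of 18 mitosis genes tested, 17 were higher on day 12 and 10 had an unadjusted p under 0.05, with a median of 0.57. UBE2C, the ubiquitin-conjugating enzyme of mitotic exit, read -2.99 to -2.37 in the controls, -2.10 and -1.57 after 6.7 Gy and -1.42 and -1.56 after 7.4 Gy, a difference of 0.99 (SE 0.21, limma adjusted p = 0.385), or of 0.47 with the common floor. TOP2A, the topoisomerase that untangles chromosomes, differed by 0.67 (SE 0.17) and AURKA, a spindle kinase, by 0.67 (SE 0.20). Neither gene overlapped between the groups. The list median was 0.37 after 6.7 Gy and 0.80 after 7.4 Gy, and both lay below that of day 7. In the DNA replication list, 4 of 18 were higher at an unadjusted p under 0.05, among them TYMS, thymidylate synthase (0.93, SE 0.29), and PCNA, the sliding clamp of DNA polymerase (0.51, SE 0.15). The mitosis count was 6 without 6.7 Gy replicate 2, without 7.4 Gy replicate 1 or without 7.4 Gy replicate 2, and the replication count was 11 without 6.7 Gy replicate 1 and 2 without control 3, control 4, 6.7 Gy replicate 2 or 7.4 Gy replicate 1. The replication median was 0.38, and 0.21 without 7.4 Gy replicate 1. Without the 3 arrays of high background, which leaves 3 controls and 2 day 12 arrays, 1 mitosis gene and 0 replication genes had an unadjusted p under 0.05, and the medians were 0.26 and 0.07.

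Crypt stem cell markers had a median of 0.28, with 10 of 10 tested positive. LRIG1, a regulator of stem cell growth factor signalling, differed by 0.36 (SE 0.15), and it was the 1 member at an unadjusted p under 0.05, a count of 0 without control 1, 6.7 Gy replicate 1 or either 7.4-Gy array. The summed levels overlapped, at 3.26 to 3.71 in controls and 3.41 to 4.10 on day 12, and the median was 0.12 without the 3 arrays of high background. Paneth and goblet cell lists had medians of 0.03 and -0.10, and in neither was a member at an unadjusted p under 0.05. With 1 array left out, these medians took either sign, from -0.13 to 0.19 and from -0.24 to 0.06. In such fits 0 to 1 Paneth genes were higher and 0 to 1 lower at an unadjusted p under 0.05, and 0 goblet genes.

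Enteroendocrine cells, which release gut hormones, were mixed. Of 12 genes tested, 5 were higher and 2 lower at an unadjusted p under 0.05, with a median of 0.49. GCG, the precursor of glucagon-like peptides, read -2.13, -0.36, -0.43 and -1.49 in the controls, 0.25 and 0.70 after 6.7 Gy and 0.58 and 0.14 after 7.4 Gy. Every day 12 array was above every control, by 1.52 on average (SE 0.40, limma adjusted p = 0.493). NEUROD1, a transcription factor of this lineage, stood 0.66 above control at either dose, and it rose by 1.36 from day 4 (adjusted p = 0.00211). NTS, neurotensin, differed by 1.59, CHGA by 0.87 and CHGB by 0.69, the last 2 coding for granule proteins. The 2 lower members were GHRL, ghrelin, at -1.35 (SE 0.36) on the brighter probe and -0.59 (SE 0.26) on a second, and MLN, motilin, at -1.57 (SE 0.56). With the common floor the brighter GHRL probe differed by -0.93. GIP, an incretin hormone, differed by -0.68 with an unadjusted p of 0.178. By dose, in the order 6.7 Gy and 7.4 Gy, GCG differed from control by 1.58 and 1.46, and GHRL by -1.80 and -0.89. Without the 3 arrays of high background the counts were 2 higher and 2 lower. With 1 array left out they were 5 to 6 higher and 1 to 2 lower.

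Absorptive enterocyte genes stood a little below control, with 15 of 18 at or below it and a median of -0.24. At an unadjusted p under 0.05, 5 were lower and 0 higher. RBP2, the retinol carrier of villus cells, read 7.54 to 7.84 in the controls, 7.24 and 6.40 after 6.7 Gy and 7.03 and 6.48 after 7.4 Gy. Its groups did not overlap and differed by -0.84 (SE 0.22, limma adjusted p = 0.493). FABP1, a fatty acid binding protein, differed by -0.68, SLC2A5, the fructose transporter, by -0.91 and TREH, trehalase, by -0.75. In contrast, the brightest probes of MTTP, MEP1A and MEP1B lay within 0.05 of control, while a second MTTP probe differed by 0.28 (SE 0.26). The list medians were -0.19 after 6.7 Gy and -0.21 after 7.4 Gy, and -0.45 on day 4. The count of lower genes was 2 without 6.7 Gy replicate 2 or 7.4 Gy replicate 2, and 3 without control 2, control 3 or 7.4 Gy replicate 1. The median was -0.16 without control 1, 6.7 Gy replicate 2 or the 3 arrays of high background.

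In calcium and iron uptake, S100G, the calcium-binding calbindin of enterocytes, read 9.07, 7.85, 8.23 and 9.22 in the controls, 6.23 and 4.21 after 6.7 Gy and 7.30 and 7.22 after 7.4 Gy. All day 12 arrays were below all controls, with a difference of -2.35 (SE 0.68, limma adjusted p = 0.529). The 6.7-Gy arrays were the lower, by a dose difference of 2.04 with a 95% interval from 0.44 to 3.64 (adjusted p = 0.821). SLC11A2, the iron transporter DMT1, differed by -0.85 (SE 0.36), with -0.87 and -0.23 on its other probes and -0.47 without control 1, and 7 of the 8 list members were below control.

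CYP1A1, the drug-metabolising enzyme induced through the aryl hydrocarbon receptor, separated by dose on the 4 day 12 arrays. It read 6.04, 5.66, 3.54 and 6.53 in the controls, 5.34 and 3.81 after 6.7 Gy, and 0.48 and -0.40 after 7.4 Gy. The 6.7-Gy arrays lay in the range of the controls and the 7.4-Gy arrays below it. The dose difference was -4.54, with a 95% interval from -6.77 to -2.31 (limma adjusted p = 0.821), and a second probe gave -4.42. With all 24 arrays and scan day as a block the difference was -4.66 (unadjusted p = 0.097). The other 21 genes of xenobiotic metabolism had unadjusted p values of 0.05 or more between day 12 and control. With 1 array left out, 0 to 3 genes of the list were lower and 0 to 1 higher at an unadjusted p under 0.05.

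**Figure D4:**
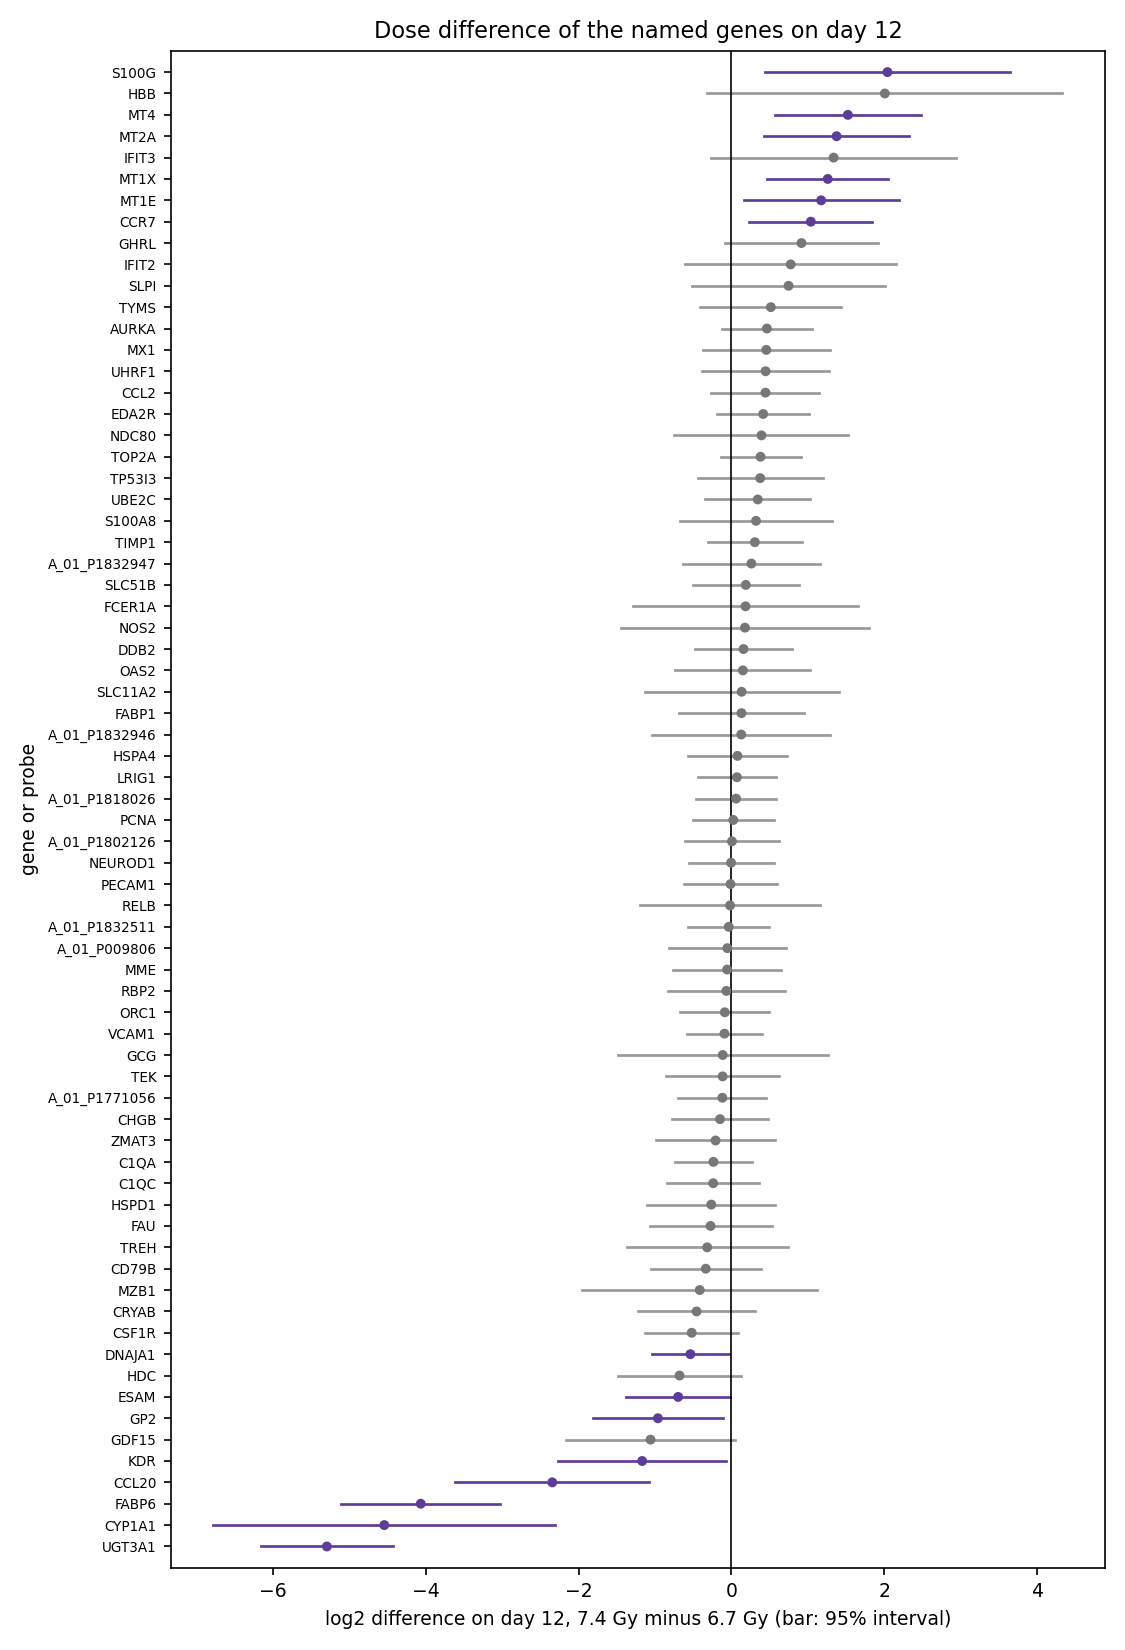
Log2 difference between the doses on day 12, 7.4 Gy minus 6.7 Gy, for 70 named genes and probes, with unadjusted 95% intervals from limma's model of 3 groups. In 56 the interval includes 0, and in 14, drawn in purple, it excludes 0, with UGT3A1, CYP1A1 and FABP6 farthest to the left and the metallothioneins among those on the right. Most of the 70 were chosen for a small p in the pooled comparison, which favors doses that lie close.

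Among blood and immune cells, the hemoglobin gene HBB showed the widest gap. It read 1.54, 2.14, 3.22 and 3.78 in the controls, -2.50 and -2.97 after 6.7 Gy and -2.16 and 0.70 after 7.4 Gy. All day 12 arrays were below all controls, with a difference of -4.40 (SE 0.83, limma adjusted p = 0.313), and a second probe gave -4.53. HBB was called with all 24 arrays in the model (adjusted p = 0.0376) but not with scan day as a block in it (0.149). That second probe was well above background on 2 of the 4 day 12 arrays, and with the common floor it differed by -2.08. HBB rose by 3.99 from day 7 to day 12 (adjusted p = 0.0179). HBA2, the partner globin, has a pair of probes that disagreed. The brighter stood at 7.58 in controls and 7.30 on day 12. The other read 1.09, 1.36, 2.42 and 3.13 in the controls, -1.06 and -1.31 after 6.7 Gy and -1.03 and 0.23 after 7.4 Gy, a difference of -2.80 (SE 0.51, limma adjusted p = 0.313) without overlap, like that of HBB. It was called with all 24 arrays in the model (adjusted p = 0.00814) but not with scan day as a block in that model (0.0694), and was above background on all 8 arrays. Of 4 erythroid genes, each by its brightest probe, HBB was the 1 with an unadjusted p under 0.05.

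Lymphoid lists stood below control or near it. B cell and plasma cell medians were -0.40 and -0.60, and in each list 1 gene was lower at an unadjusted p under 0.05. These were CD79B, a subunit of the B cell receptor (-0.68, SE 0.22), and MZB1, an antibody-assembly factor (-1.31, SE 0.45). The B cell median was -0.10 with normexp, 0 with the common floor and -0.21 without 6.7 Gy replicate 1. Without that array the plasma cell median was -0.41 and 0 of its 7 genes were lower at an unadjusted p under 0.05. The T and NK cell median was -0.03, and -0.23 without 7.4 Gy replicate 1. CCR7, the lymph node homing receptor, differed by -1.34 (SE 0.34) on the brighter probe and by 0.14 on a second probe, both near background, and the brighter probe fell by 2.25 from day 4 (limma adjusted p = 0.00304). Mast cell and eosinophil genes had a median of -0.39, or -0.10 with the common floor, -0.60 without 6.7 Gy replicate 2 and -0.19 without 7.4 Gy replicate 1, with FCER1A, the IgE receptor alpha chain, at -2.08 (SE 0.42) and HDC, the histamine-forming enzyme, at -1.10 (SE 0.28). FCER1A was well above background on all controls and on 2 of the 4 day 12 arrays, and with the common floor it differed by -0.80. HDC differed by -0.04 with the common floor and by -0.45 with normexp, so the size of its difference rests on signal near background.

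Of 8 macrophage genes tested, 7 were above control, 2 of them at an unadjusted p under 0.05, and 1 was below it. With 1 array left out, 0 to 2 were higher and 1 lower at an unadjusted p under 0.05. The summed level was 5.70 to 5.93 in the controls and 6.08 to 6.40 on day 12, without overlap. This also held for other lists, among them the p53 targets, enteroendocrine cells and endothelium. The median was 0.30, with complement genes C1QC at 0.50 (SE 0.18, 0.24 on a second probe) and C1QA at 0.39 (SE 0.15) and CSF1R, the macrophage growth factor receptor, at -0.90 (SE 0.21). CSF1R read 0.87 to 1.29 in the controls and -0.38 to 0.51 on day 12, without overlap. S100A8, a neutrophil protein, differed by 0.95 (SE 0.30) at levels near background.

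Endothelial genes stood below control, with 5 of 8 tested lower at an unadjusted p under 0.05, 0 higher and a median of -0.50. KDR, the main receptor for VEGF, read -1.48 to -0.54 in the controls, -1.66 and -1.68 after 6.7 Gy and -3.52 and -2.15 after 7.4 Gy. The day 12 arrays were all below the controls, by 1.23 on average in size (SE 0.42, limma adjusted p = 0.62), and a second probe differed by -0.83. Without 7.4 Gy replicate 1 the brighter KDR probe differed by -0.81, and with normexp by -0.79. TEK, the angiopoietin receptor, differed by -0.70 (SE 0.21) on the brighter probe and by 0.07 (SE 0.51) on a second one near background. ESAM, a junction molecule, differed by -0.80 (SE 0.26) and PECAM1, a junction adhesion molecule, by -0.41 (SE 0.17). CDH5 and FLT1, at 0.20 and 0.36 on their brighter probes and -0.16 and 0.04 on dimmer ones, did not reach an unadjusted p under 0.05. The count was 3 without control 1, control 4, 6.7 Gy replicate 2 or either 7.4-Gy array. Without the 3 arrays of high background it was 1 and the median was -0.25. With the common floor, where TEK and ESAM gave no difference, the count was 2 and the median -0.08.

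Interferon response genes had a median above control. Of 21 tested, 19 were above control and 5 had an unadjusted p under 0.05, with a median of 0.85. MX1, an antiviral GTPase, read 1.47, 1.68, 0.83 and 0.69 in the controls, 1.77 and 1.87 after 6.7 Gy and 2.37 and 2.18 after 7.4 Gy, a difference of 0.88 (SE 0.26, limma adjusted p = 0.543). IFIT2, which binds viral RNA, differed by 1.23 (SE 0.44) and CXCL10, a T cell attractant, by 1.71. The list median was 0.40 after 6.7 Gy and 1.23 after 7.4 Gy, and 2 of 21 genes had an unadjusted p under 0.05 for the dose difference, against 4.97% of all genes. The 95% intervals of the dose difference included 0 for MX1, IFIT2, IFIT3 and OAS2, the 4 genes named by the rule. The summed level of the list was 4.41 to 5.54 in the controls and 5.37, 4.98, 6.33 and 5.08 on day 12, with 7.4 Gy replicate 1 alone above the controls. The count was 2 without control 4, and the median was 0.37 without 7.4 Gy replicate 1. Without the 3 arrays of high background, which include 7.4 Gy replicate 1, 0 genes were higher at an unadjusted p under 0.05, 2 were lower and the median was 0.39.

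TNF and NF-kB targets had a median of 0.19, against 0.75 on day 4, with 5 of 19 higher at an unadjusted p under 0.05 and 0 lower. CCL20, an attractant of dendritic cells and lymphocytes, read -3.27 to -1.50 in the controls, 0.16 and 0.79 after 6.7 Gy and -1.89 and -1.84 after 7.4 Gy. The 6.7-Gy arrays lay above the controls and the 7.4-Gy arrays within their range, with a dose difference of -2.34 (limma adjusted p = 0.821). The pooled difference of CCL20 was 1.93, or 1.28 with the common floor. CCL2, a monocyte attractant, stood 0.70 above control (SE 0.23) and fell by 1.87 from day 4 (adjusted p = 0.0076). With the common floor CCL2 differed from control by 0.06. VCAM1, an adhesion molecule, differed by 0.37 (SE 0.14). The count of higher genes was 2 without control 1, control 2 or either 6.7-Gy array. The median was 0.06 with the common floor, 0.31 without control 3 and 0.30 without 7.4 Gy replicate 2.

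In mucosal defence, NOS2, the inducible nitric oxide synthase, read -0.02 to 0.52 in the controls, -0.95 and -2.63 after 6.7 Gy and -0.66 and -2.57 after 7.4 Gy. Both doses lay below the controls, by 2.01 and 1.83 in size, for a pooled difference of -1.92 (SE 0.47, limma adjusted p = 0.465). GP2, the bacterial receptor of M cells, differed by -1.28 (SE 0.34) on its brighter probe and by 0.54 (SE 0.21) on a second, so its direction is not settled. With the common floor the brighter probe differed by -0.05 (limma adjusted p = 1.00). SLPI, a protease inhibitor of mucus, differed by 1.13 (SE 0.40), or by 0.74 without 7.4 Gy replicate 2.

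The medians of structural and general stress lists lay near 0. They were -0.20 for smooth muscle, -0.11 for enteric neurons and glia, -0.14 for cholesterol synthesis, 0.03 for glucocorticoid targets and 0.14 for heat shock proteins. With 1 array left out they lay between -0.29 and 0.32. In the first 4 lists no gene had an unadjusted p under 0.05. Heat shock proteins went both ways, with 3 of 13 higher and 1 lower at an unadjusted p under 0.05, and with any 1 array left out 0 or 1 was higher and 1 lower. Without 6.7 Gy replicate 1 their median was -0.06. Fibroblast and matrix genes had a median of 0.02 on day 12, against 0.96 on day 4, and TIMP1, an inhibitor of matrix metalloproteinases, stood 0.61 above control (SE 0.19).

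**Figure D5:**
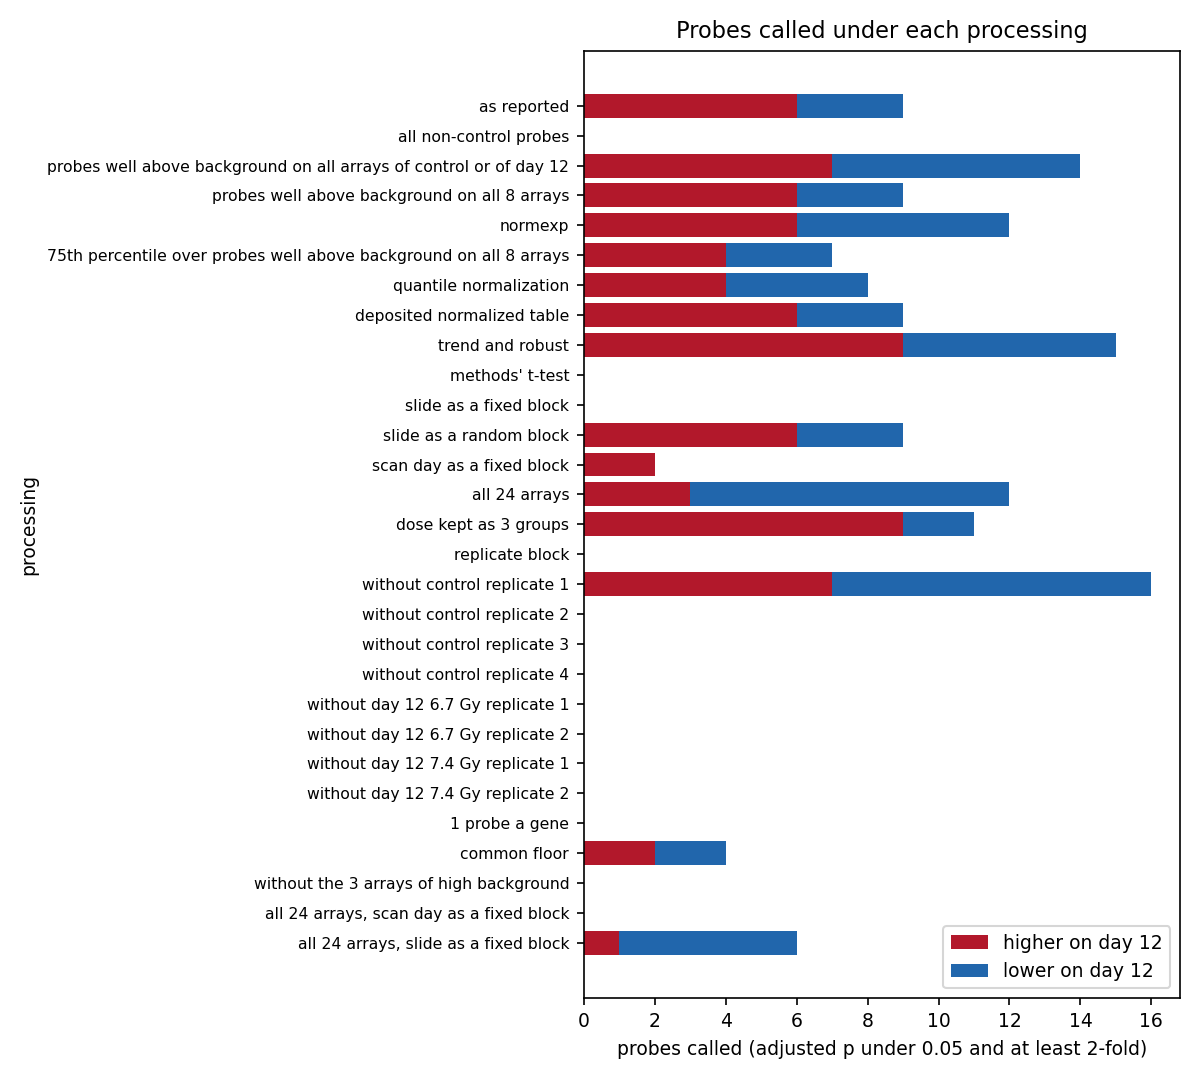
Number of probes called between day 12 and control under each processing, with those higher on day 12 in red and those lower in blue. The count is 9 as reported, lies between 0 and 16 over the alternatives and is 0 with all probes tested and in 7 of the 8 fits that leave out 1 array.

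The number of probes called depended on the processing, as the plot of calls by processing shows. The differences of the 70 named genes and probes kept their sign under each alternative that gave a difference. With the common floor, 10 of the 70 gave none. Most of the 70 were chosen for a small p on these same arrays, which favors a kept sign, so the signs are no test of them. Against the earlier days, 913 probes were called between day 12 and day 4 (2.54%) and 17 between day 12 and day 7 (0.0473%) in limma's model of all 24 arrays. These counts compare 4 arrays with 8, so they cannot be set against the count of day 12 with control.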

How the data were processed

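RNA from 24 jejunum samples was hybridized to 1-color Agilent rhesus arrays. Per the file headers, the authors extracted the deposited intensity values with Feature Extraction 11.0.1.1, which subtracts background. In the deposited log2 table, the authors had scaled each array to its 75th percentile and centred each probe, and it differed from the scanner files treated the same way by at most 0.00176. The authors' methods used a t-test with 2-fold and p limits. Their raw table was not used.

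Control spots were removed and spots of a probe averaged, giving 43603 probes. Levels were log2 processed intensities, from which the 75th percentile of the array was subtracted. Probes well above background on at least 4 of the 8 arrays (35958) were tested with limma 3.58.1 (lmFit, eBayes, R 4.3.3), without covariates. Dose was tested in a model of 3 groups, and days 4 and 7 in a model of all 24 arrays. The Benjamini-Hochberg adjustment covered all probes tested. Nothing beyond separate animals marks the replicates, and the number of arrays limits the precision.

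Symbols came from the files for 23674 probes and through accessions for 121, and 19808 had none. Of 16094 symbols, 11706 stood in the RefSeq gene table given for assembly T2T-MMU8v2.0. The brightest probe stood for a gene in the lists. Named genes were called probes with a symbol, at most 4 list members with the smallest p, and 8 fixed genes (FABP6, UGT3A1, MT2A, EDA2R, GDF15, CYP1A1, HBB and S100G); list members named beyond these were chosen after their values were seen. The comparison, lists and rules were chosen with earlier results of these data known. The labels' treatment note gives a later last day than the titles, whose day 12 was used.

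Alternatives changed the probe filter, background correction (normexp on median signals, as the files hold no mean signal), normalization, values, test, blocks, samples and probes per gene. The fits were tested on simulated data. Same-numbered samples did not deviate together (correlations from -0.139 to 0.0856), so numbers were not taken as pairs.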

Additional observations from a re-analysis of the deposited data

Results flagged for a closer look

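UGT3A1 differed between the doses on day 12, by -5.29 (7.4 Gy minus 6.7 Gy) in limma's model of 3 groups. Dose and scan day cannot be told apart there, and with all 24 arrays the limma adjusted p was 0.741. Levels differed between day 12 and day 4 in the model of all arrays for several genes. Day 12 stood below day 4 by a log2 difference of -2.74 for GDF15, -2.07 for DDB2, -1.96 for EDA2R, -1.43 for ZMAT3, -2.25 for CCR7, -1.87 for CCL2, -1.09 for VCAM1, -1.24 for SLC11A2 and -1.14 for KDR. Day 12 stood above day 4 by 2.78 for UGT3A1, 2.25 for HBB, 1.36 for NEUROD1, 1.34 for GCG, 1.06 for SLC51B and 2.83 for the probe labelled FAU. For UGT3A1 this mean covers both doses, and the 7.4-Gy arrays of day 12, at -4.26 and -3.41, lay within those of day 4, at -4.58 to -2.80. Among probes with no symbol the differences were 1.95 for A_01_P009806, 1.55 for A_01_P1818026, 2.74 for A_01_P1832946 and 2.36 for A_01_P1832947. Between day 12 and day 7 they were 3.99 for HBB and 1.94 for A_01_P009806.

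A single array stood apart from the other 3 of its group in 6 of 140 groups examined, all of them controls; chance sets apart about 1 in 20. The gap as a share of the group's range was 0.841 for UGT3A1 in control 4, 0.860 for MT1X in control 3, 0.932 for RBP2 in control 2, 0.884 for CSF1R in control 1, 0.881 for HDC in control 3 and 0.979 for HSPA4 in control 1.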

How the results depend on the processing

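Between day 12 and control, the 9 calls became 14 with probes that all 4 arrays of either group measured above background, 15 with a trended robust fit and 0 with all probes, the methods' t-test (356 at an unadjusted p under 0.05 and 2-fold), slide as a fixed block or 1 probe a gene. They were from 0 to 16 with 1 array left out, and 2 (FABP6 and UGT3A1) with scan day as a block. On the 8 arrays that block takes up both 7.4-Gy arrays, so the fit equals the lower dose against control. Its 2 calls repeat that comparison and do not test the pooled difference. Alternatives chosen after seeing the data gave 4 with a common floor and 0 without the 3 high-background arrays or with scan day as a block over 24 arrays, and 6 with slide as a block over 24 arrays, none of them among the 9. The replicate block gave 0 calls here and 0 between the doses; the samples share only a number. The 1 call between the doses became 0 with all probes, either stricter filter, quantile normalization, the methods' t-test, all 24 arrays, or those with scan day or slide as a block. It became 3 with normexp, 2 with a common floor, and from 0 to 1404 with 1 array left out, the highest without 7.4 Gy replicate 2, where the high-background array alone stood for its dose. The named genes CCR7, TEK, ESAM, OAS2, ORC1, RELB, S100A8 and ZMAT3 and the called probes A_01_P1832946 and A_01_P1832947 lay at or under the common floor on all 8 arrays and gave no difference there. Among the differences of named genes that moved by over 1.5 times were, with slide as a fixed block, 0.60 for C1QA, 0.81 for C1QC, 0.46 for CCL2, -0.53 for CSF1R, 0.43 for DDB2, -0.48 for ESAM, -0.51 for KDR, 0.20 for LRIG1 and -0.37 for TREH. With normexp they included 0.29 for C1QC, -0.34 for CCR7, -0.44 for ESAM, -0.24 for PECAM1, 0.43 for S100A8, -0.33 for TEK, 1.73 for FAU, 1.44 for A_01_P1832946 and 1.43 for A_01_P1832947. Of 29 list medians under 28 alternatives, 763 values moved by less than the spread of the day 12 arrays and 49 by more. The cause of these shifts was not tested. On the 8 arrays 41.2% to 87.7% of probes were well above background, and below it a probe has only a bound.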

Other observations

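Several genes outside the lists stood apart on day 12 and were called under an alternative, though not as reported; they were chosen after their values were seen. MNP1A, an alpha-defensin, read 1.47 to 2.42 in the controls and -0.29 to 0.29 on day 12, a difference of -1.87 (SE 0.24, limma adjusted p = 0.105). RTD1B, a precursor of macaque theta-defensins, read -0.55 to 0.97 in the controls and -2.22 to -2.05 on day 12, a difference of -2.24 (SE 0.29, adjusted p = 0.105). Both defensins were lower on all 4 day 12 arrays than on any control, after either dose, with a dose difference of 0.20 for MNP1A and -0.08 for RTD1B. A second MNP1A probe, near background, differed by -0.16. These antimicrobial peptides are made by neutrophils and other myeloid cells, while the 6 tested genes of the neutrophil list had a median of 0.26, or 0.02 with the common floor, 0.15 without control 4 and 0.11 without 7.4 Gy replicate 1.

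BEST2, an anion channel, stood at -8.06 to -5.22 in the controls, of which 2 were well above background, and at -1.96 to 0.22 on day 12. It was higher on all 4 day 12 arrays, but with controls near background the size of the difference was not measured well. The fitted difference was 5.35 (limma adjusted p = 0.105), against 2.74 with normexp (adjusted p = 0.0914) and 1.11 with the common floor (adjusted p = 0.862). One GUCY1A3 probe read 2.49 to 5.72 in the controls and -1.15 to 0.04 on day 12, a difference of -5.36 (adjusted p = 0.0969), while the other 2 probes of this guanylate cyclase subunit differed by -0.68 and -0.71.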
